A study of Mus musculus with 17 samples.

Results

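Ccr6 and Ccr7 encode chemokine receptors that steer lymphocytes to and within tissues, and their levels are described here in regulatory T cells (Tregs) with altered dosage of Nfkbid. They are 2 of the 47643 rows of a table of expected counts per gene. The 2 rows were picked by name after their counts in these libraries had been seen, so their levels and differences between groups are given as a description, without a test. All 17 libraries came from splenic CD4+ T cells of mice of the NOD strain, which is prone to autoimmune diabetes, and every mouse carried the Foxp3-GFP reporter by which the GFP+ Tregs were sorted. The control group (genotype label Control NOD, NOD.Foxp3-GFP, 6 libraries) was the reference for both. The knockout group (NOD-Nfkbid-KO.Foxp3-GFP, 5 libraries) lacked Nfkbid, the gene of IkBNS, a member of the IkB family that works in the nucleus and tunes NF-kB target genes. The transgenic group (genotype label NOD-60A Tg+, NOD-60A.Foxp3-GFP, 6 libraries) overexpressed it. The promoter of the transgene and the age of the mice are not given in the sources used here. Each control or knockout library was a pool of 2 samples and each transgenic library came from 1 sample, so transgene and pooling cannot be told apart in the transgenic comparisons. Whether separate libraries came from separate mice is not spelled out, so p-values speak for the spread of these libraries alone, which may be technical.

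CCR6 binds the chemokine CCL20. It is carried by Th17 cells, by B cells and by a subset of effector Tregs, and it draws these cells to inflamed or mucosal tissue. CCR7 binds CCL19 and CCL21 and brings naive and resting T cells, Tregs among them, through high endothelial venules into lymph nodes and into the T cell zones of lymph nodes and spleen. Activated Tregs usually lose CCR7 and gain receptors for peripheral tissue.

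On GRCm38 the gene Ccr6 (ENSMUSG00000040899) lies on the plus strand of chromosome 17, from 8236043 to 8257141. Its row covers 6 transcripts with 7 merged exons and 1873 exon bases. The last exon, 8255963 to 8257141, is 1179 bases long and holds the whole coding sequence, 8255965 to 8257065. Ccr7 (ENSMUSG00000037944) lies on the minus strand of chromosome 11, from 99144196 to 99155077, and has 1 transcript of 3 exons and 1978 exon bases, 1839 of them in the last exon.

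RefSeq gives Ccr6 more than 1 start. The 250 bases before 2 of them are shown, from RefSeq on GRCm38.p6, because Nfkbid acts on NF-kB, and capitals mark matches to the general kappaB consensus on either strand.
Ccr6, upstream start, chr17:8235793-8236042, plus strand: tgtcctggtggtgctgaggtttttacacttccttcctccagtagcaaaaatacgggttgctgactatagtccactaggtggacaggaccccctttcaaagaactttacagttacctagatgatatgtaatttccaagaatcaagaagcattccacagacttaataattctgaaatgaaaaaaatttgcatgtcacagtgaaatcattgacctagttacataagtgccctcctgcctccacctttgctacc
Ccr6, downstream start, chr17:8242276-8242525, plus strand: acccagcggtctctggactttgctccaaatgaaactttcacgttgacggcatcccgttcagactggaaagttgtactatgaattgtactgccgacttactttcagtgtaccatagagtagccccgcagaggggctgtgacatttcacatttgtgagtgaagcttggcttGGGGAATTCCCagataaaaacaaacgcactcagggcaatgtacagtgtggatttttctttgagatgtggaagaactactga
The upstream window held no match. The downstream window held 2 overlapping matches that together span the 11 capital letters. The consensus occurred in 15046 of 32851 promoter windows of this length, or 45.8%, so a match is common. The 9-letter string GGGAATTCC, looked up on both strands after the letters had been seen, was rarer, with 69 windows or 0.21%. A match describes the letters only. No Ccr7 window was matched.

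Many rows of this table appear not to hold the reads of the gene they name. The counts were compared with the exon annotation at different offsets. Spearman's rho across rows, averaged over the 20 chromosomes, was 0.521 with exons in place. It was 0.542 when each row's exons were moved away from the chromosome start by 0.45 kb per Mb, the highest of 8 slopes, and 0.429 at the mirrored slope. The rise was not steady, since rho at 0.15 and 0.3 kb per Mb was 0.508 and 0.515, below that of unmoved exons, and on chromosome 11 0.451 and 0.48. On chromosome 17 rho went from 0.468 to 0.551, and on chromosome 11 from 0.514 to 0.517. Rows near a chromosome start would thus move little and distant rows far, so the place of each receptor row was examined over a range of moves, with 0.45 kb per Mb as an estimate only.

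The Ccr6 row lies 8.2 Mb from the chromosome start and would move by 3.71 kb at that slope. Moved by 3.7 kb, its exons overlapped 69 bases of Ccr6 exons and no other gene, and its last exon had left the gene. RefSeq extends Ccr6 by 1378 bases beyond the end in GENCODE. Within that longer span, the last exon of the row still held 1179 bases at 1.2 kb, 357 at 2.2 kb and 57 at 2.5 kb, the largest move with any. No other gene came under the row before 25.8 kb, where Mpc1 began. A nearby pair of rows gave a local reading of the move. Tagap and its antisense partner E430024P14Rik lie 0.3 Mb before Ccr6 and had mean counts of 284.6 and 1288.9, a ratio of 4.53, whereas their unmoved exons overlap 3080 and 716 bases of Tagap. The ratio of overlapped bases came closest, at 4.55, for a move of 2.2 kb. That value rests on 1 pair of rows and on their mean counts. The ratio was not the same in every library. Tagap and E430024P14Rik held 432 and 1459 counts in control library 4, but 194 and 1911 in knockout library 5. Whether both rows hold Tagap reads was not tested. At that move the Ccr6 row would count reads from the 3' end of Ccr6, and at the common slope it would lie on no annotated last exon.

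The Ccr7 row lies 99.1 Mb from its chromosome start and would move by 44.61 kb. Its exons touched Ccr7 exons only for moves of up to 10.8 kb, and at 44.6 kb they lay on no exon of any gene. Of 901 moves between 0 and 90 kb, 550 put the row on no exon. The first other gene reached was Smarce1, a chromatin remodelling subunit, at 54.0 kb. In the other direction, the row that would cover the exons of Ccr7 after moves of 54.9 to 89.3 kb was Tns4, with a mean of 1.88 counts per library. The values of the Ccr7 row are therefore given below as those of a row and not of Ccr7 mRNA.

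**Figure D1:**
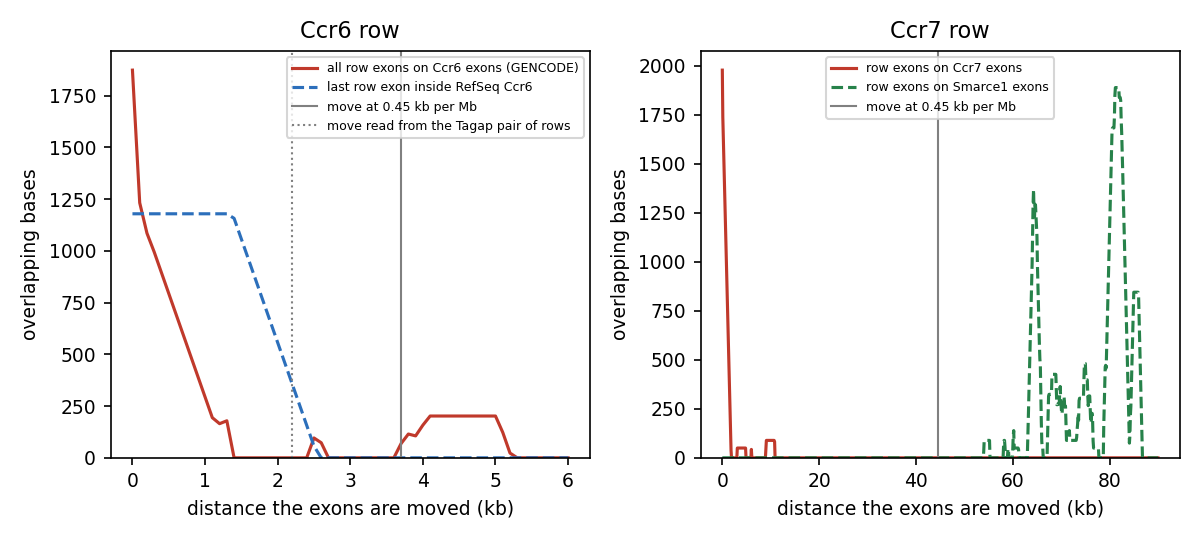
Bases of each row's exons (y axis) that overlap the named gene or its neighbour when the exons are moved by the distance on the x axis (kb). The Ccr6 row stays within the RefSeq gene for moves of up to 2.5 kb, beyond the 2.2 kb read from the Tagap rows but short of the 3.71 kb of the common slope. The Ccr7 row leaves its gene after 10.8 kb and meets Smarce1 only from 54.0 kb, with the common slope at 44.61 kb between them.

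Library totals were 3133388 to 4726615 counts, and 3 counts correspond to 0.635 to 0.957 CPM, the count scaled to a common library size by library total and TMM factor, and not by gene length. Rows above 0 numbered 15801 to 16705 in transgenic and 15815 to 17379 in control libraries, and 13476 to 13802 in knockout libraries 2, 3 and 5 against 15039 and 15931 in knockout libraries 1 and 4. The Foxp3 row is named for the defining transcription factor of Tregs, and 5.7% of its exon bases stayed on that gene at the common slope. It was at 344.4 ± 15.4 CPM in control (SD, n = 6), 311.1 ± 40.7 in knockout (SD, n = 5) and 316.5 ± 21.9 in transgenic libraries (SD, n = 6), and was not called in any comparison. The Nfkbid row was at 4.55 ± 0.91, 4.72 ± 2.40 and 8.73 ± 1.51 CPM in that order. The knockout was thus not lower than the control in that row, which does not check the genotype. A row was called at a Benjamini-Hochberg adjusted p under 0.05 in edgeR's quasi-likelihood test over 9986 rows.

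The Ccr6 row had a lower mean in knockout Tregs than in either other group. It held 41.3, 30.4, 36.8, 34.5 and 31.9 CPM in knockout libraries 1 to 5, a mean of 35.0 ± 4.31 (SD, n = 5). In control libraries 1 to 6 it held 77.9, 53.7, 54.8, 44.8, 63.2 and 39.3 CPM, a mean of 55.6 ± 13.7 (SD, n = 6). In transgenic libraries 1 to 6 it held 55.3, 52.3, 68.7, 52.8, 63.8 and 55.2 CPM, a mean of 58.0 ± 6.68 (SD, n = 6). Every transgenic library lay above every knockout library. Knockout and control overlapped in a single place, where knockout library 1 exceeded control library 6. The transgenic values all fell inside the range of the controls. In order of level, the transgenic and control means did not differ beyond their spread, and the knockout mean came last.

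The Ccr6 difference between knockout and control was -0.67 on the log2 scale (SE 0.15), or 1.59-fold lower. Between transgenic and knockout it was 0.73 (SE 0.15), or 1.65-fold higher, and between transgenic and control 0.06 (SE 0.14, 95% interval -0.22 to 0.34). The comparisons share libraries, so these 3 values are not independent of each other. Among all 9986 rows, 1.01% were called lower in knockout than in control, and 4.24% were higher in every transgenic than in every knockout library. These values were among those that led to the choice of the row, and nothing further is read from the shares. If the row holds Ccr6 reads, fewer Ccr6+ cells and less Ccr6 RNA per cell cannot be told apart in these bulk libraries. Whether it holds them was not settled by the moves described above.

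The Ccr6 counts behind these values ran from 94 in knockout library 2 to 377 in control library 1. Counting error alone would give a coefficient of variation of 7.27% in transgenic, 9.12% in knockout and 6.84% in control libraries. The observed coefficients were 11.5%, 12.3% and 24.7%, so the control libraries varied most among themselves. Control library 1, the highest for Ccr6, was also the deepest library. The deposited Ccr6 value was not a whole number in any of the 17 libraries, as an expected count is when a read is divided between places it could come from. Without knockout libraries 2, 3 and 5, which had the fewest rows above 0, the Ccr6 difference from control was -0.56 and that between transgenic and knockout 0.62.

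The Ccr7 row held few counts in every group and fewest in the knockout. Its counts were 4, 7, 13, 18, 14 and 4 in transgenic libraries 1 to 6. They were 19, 3, 3, 9, 12 and 17 in control libraries 1 to 6, and 2, 4, 1, 0 and 0 in knockout libraries 1 to 5. The highest knockout library, with 4 counts, lay above 2 control libraries with 3 each, and the groups overlapped in all 3 comparisons. Scaled to library size, the mean was 3.02 ± 1.68 CPM for transgenic (SD, n = 6), 2.76 ± 1.68 for control (SD, n = 6) and 0.422 ± 0.536 for knockout libraries (SD, n = 5).

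The total over the knockout libraries was 7 counts, with an exact Poisson 95% interval of 2.81 to 14.4 that covers counting error only, against 63 in control and 60 in transgenic libraries. On the log2 scale the Ccr7 row differed by -2.64 (SE 0.72) between knockout and control, by 2.77 (SE 0.72) between transgenic and knockout and by 0.13 (SE 0.53) between transgenic and control. The row passed the filter on low counts through the transgenic and control groups, whatever its level in the knockout. The size of its difference from the knockout is therefore not read as support. Its coefficient of variation was 55.7% in transgenic, 127% in knockout and 60.8% in control libraries, beyond the 31.6%, 84.5% and 30.9% of counting error. Every deposited value of the row was whole.

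**Figure D2:**
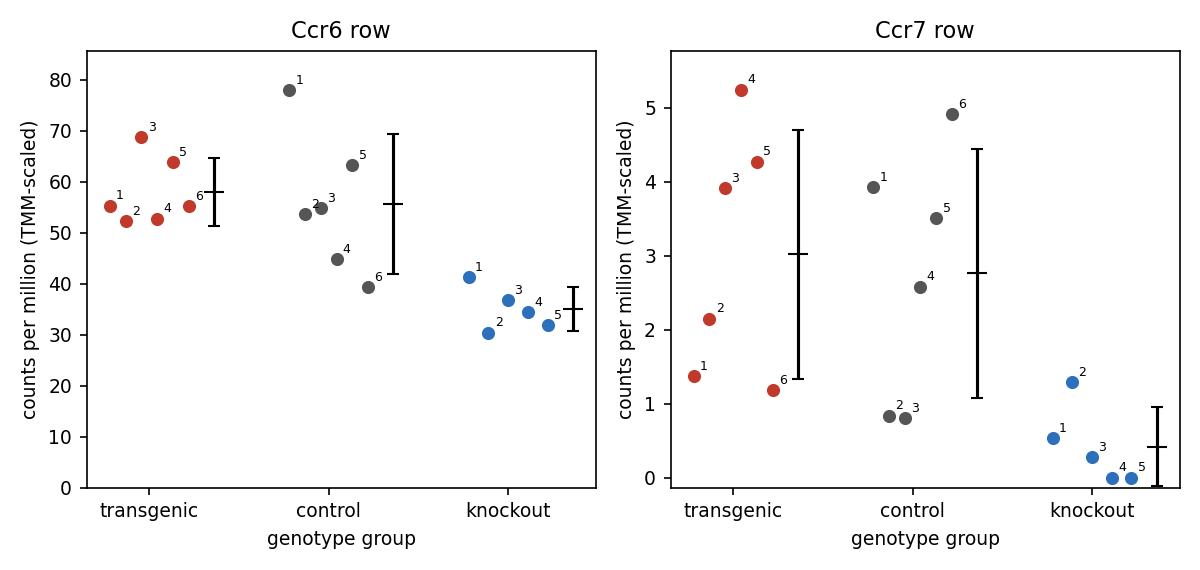
CPM (y axis) of the Ccr6 row (left) and the Ccr7 row (right) in each library, numbered by replicate, with bars for the group mean and SD. All 6 transgenic libraries sit above the 5 knockout libraries for Ccr6, with knockout library 1 just above control library 6, and the Ccr7 row overlaps between groups at levels of 0 to 5.25 CPM.

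Across the 17 libraries the log2 CPM of the Ccr6 and Ccr7 rows correlated with r = 0.655, and with r = 0.066 once group means were removed. The Ccr7 row held 0 to 19 counts and was at 0 in 2 knockout libraries. The second value therefore cannot show whether the rows vary together within groups. These and the correlations that follow are descriptions over libraries that share depth and groups, with no test.

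The named rows most like Ccr6 over the 17 libraries were Zfp42 (r = 0.855), Prdm1 (0.847), Dot1l (0.842), Mpnd (0.841) and Map6 (0.835). With group means removed these were 0.533, 0.482, 0.562, 0.48 and 0.672. The rows were picked for the highest r over these same libraries, which also lifts the values with group means removed. No likeness within groups is therefore read from them. Zfp42 averaged 86.5 ± 10.8 CPM over the transgenic libraries (SD, n = 6), 50.3 ± 9.86 over the knockout (SD, n = 5) and 78.9 ± 9.95 over the control libraries (SD, n = 6). Prdm1, named for the transcription factor Blimp-1 of effector Tregs and plasma cells, held 42.1 ± 9.44, 7.17 ± 4.42 and 25.7 ± 6.11 CPM in that order. Dot1l, named for a histone H3 methyltransferase, held 405 ± 39.2, 295 ± 17.3 and 369 ± 44.8 CPM.

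The named rows most like Ccr7 were Rhpn2 (r = 0.84), Entpd2 (0.812), Sptlc1 (0.809), Gsap (0.809) and Dagla (0.78). Spearman's rho was 0.775, 0.596, 0.657, 0.819 and 0.728 for these rows. With group means removed r was 0.714, 0.762, 0.524, 0.639 and 0.396, values that the same pick lifts. The Ccr7 and Entpd2 rows were both at 0 in knockout libraries 4 and 5, where they take the same low log2 value. Their r thus rests in part on the floor. Dagla had the widest group levels of the 5, at 19.9 ± 4.77 CPM for transgenic (SD, n = 6), 3.11 ± 1.84 for knockout (SD, n = 5) and 10.1 ± 2.00 for control libraries (SD, n = 6). None of the rows most like Ccr6 was among those most like Ccr7.

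**Figure D3:**
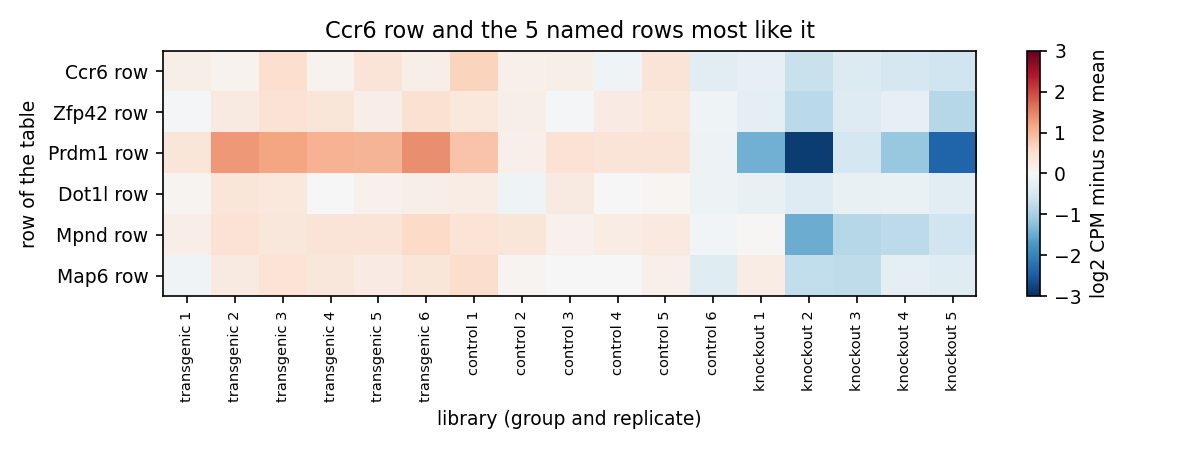
Log2 CPM minus the row's mean over all libraries (colour) for the Ccr6 row and the 5 named rows most like it (y axis), by library (x axis). The 5 knockout libraries and control library 6 sit below the mean of the Ccr6 row, together with control library 4, and the Prdm1 row shows the widest range.

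Rows next to Ccr6 were examined as well. Of the 6 rows within 250 kb with a mean of at least 10 counts (Mpc1, Fgfr1op, Sft2d1, 4930506C21Rik, Rnaset2a and Gm16702), none was called in any comparison by edgeR, DESeq2 or limma with voom. Their differences between knockout and control ran from -0.35 to 0.39, and 1 of the 6 had an unadjusted p under 0.05 in edgeR, for transgenic against control only. Near the Ccr7 row the 6 such rows were Cdc6, Top2a, Rara, Wipf2, Gm22061 and Krt26. Rara, named for the retinoic acid receptor alpha, was called in every comparison. Transgenic libraries exceeded controls by 0.71 on the log2 scale (SE 0.17, adjusted p = 0.0124). Knockout libraries differed from controls by -0.83 (SE 0.19, adjusted p = 0.0241), and transgenic exceeded knockout by 1.54 (SE 0.19, adjusted p = 7.28e-06). It held 130 ± 24.4, 44.7 ± 13.2 and 79.6 ± 19.9 CPM in transgenic, knockout and control libraries. The knockout call on Rara was lost in 8 of 28 alternatives. Gm22061 was called for transgenic against knockout (1.25, SE 0.29, adjusted p = 0.00606). The other 4 rows near Ccr7 were not called. Over all rows 7.4%, 1.89% and 10.7% were called in transgenic against control, knockout against control and transgenic against knockout.

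The rest of the chemokine receptor family could hardly be read. Of 22 further receptor rows, 8 were at 0 in every library, among them Ccr4, Ccr8 and Cxcr4, which are usually well expressed in Tregs. At most 18.5% of the exon bases of any of these rows stayed on the named gene over the 4 slopes examined between 0.15 and 0.6 kb per Mb, and 0% at 0.45. Of the 24 receptors, Ccr6 starts nearest to its chromosome start, at 8.2 Mb, followed by Cxcr5 at 44.5 Mb. Of the 22 rows 5 were tested (Ccr2, Ccr9, Ccr10, Cxcr6 and Ackr1) and none was called, in comparisons where 7.4% (transgenic against control), 1.89% (knockout against control) and 10.7% (transgenic against knockout) of all rows were. DESeq2 and limma with voom also called 0 of them, and 0 had an unadjusted p under 0.05 in edgeR. The Ccr9 row, named for the gut-homing receptor, was at 11.5 ± 1.63 CPM for transgenic (SD, n = 6), 8.85 ± 4.89 for knockout (SD, n = 5) and 11.4 ± 2.72 for control libraries (SD, n = 6).

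The rows named for the ligands of both receptors were at or near 0. The Ccl20 row, for the ligand of CCR6, and the Ccl21a row, for a ligand of CCR7, held 0 counts in every library, and the Ccl19 row reached at most 0.289 CPM. None of their exon bases stayed on the named genes at any of the 4 slopes. At those slopes these rows would not measure the ligands, but the move itself is an estimate only. Of 35 ligand rows 4 were tested, and edgeR called 1, in transgenic against knockout, where 6.34% of all rows were called higher. Ccl25, named for the ligand of CCR9, was higher in transgenic than in knockout libraries by 0.65 (SE 0.16, adjusted p = 0.0118), with 24.3 ± 2.54 CPM (SD, n = 6) against 15.4 ± 3.20 (SD, n = 5), and differed by -0.58 between knockout and control (adjusted p = 0.063). Without knockout libraries 2, 3 and 5 the first value was 0.45 (adjusted p = 0.172). None of the 4 was called between transgenic and control, where 2 had an unadjusted p under 0.05 in edgeR and DESeq2 and voom called 0.

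Of 20 rows for lymphoid homing, adhesion and egress, 13 were tested. S1pr4, named for a sphingosine 1-phosphate receptor, was the only call of edgeR, lower in transgenic than in knockout libraries by 0.55 on the log2 scale (value -0.55, SE 0.15, adjusted p = 0.0199), with overlapping groups, beside 4.33% of all rows called lower in that comparison. Without knockout libraries 2, 3 and 5 it was -0.16 (adjusted p = 0.618). For transgenic against control edgeR called 0 of the 13, with 2 at an unadjusted p under 0.05, DESeq2 called 2 and voom 1. For knockout against control edgeR called 0, with 3 at an unadjusted p under 0.05, DESeq2 called 1 and voom 0. The median over the 13 rows was -0.05 for transgenic against control, -0.12 for knockout against control and 0.09 for transgenic against knockout, beside -0.01, -0.02 and 0 over all rows. The S1pr1 row, named for the receptor for egress from lymphoid organs, was at 0 in every library, and none of its exon bases stayed on that gene.

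Of 42 rows for signalling downstream of chemokine receptors, 28 were tested, with 1 called higher and 2 lower in transgenic against control, 0 in knockout against control, and 2 higher and 3 lower in transgenic against knockout. Over all rows 5.23% were called higher and 2.17% lower in the first comparison, and 6.34% and 4.33% in the last. In knockout against control, DESeq2 and voom also called 0, while 5 had an unadjusted p under 0.05 in edgeR. Rasgrp2 encodes the exchange factor that activates Rap1 and, through it, integrins when a chemokine receptor is triggered. It was at 639 ± 53.8 CPM for transgenic (SD, n = 6), 1063 ± 33.1 for knockout (SD, n = 5) and 1147 ± 137 for control libraries (SD, n = 6), so it fell in the transgenic group, where the Ccr6 row differed from control by 0.06. The differences were -0.84 (SE 0.09, adjusted p = 9.1e-07) against control and -0.73 (SE 0.09, adjusted p = 9.38e-06) against knockout, with every transgenic library below every other, as for 2.45% of all rows against control and 1.96% against knockout. Rasgrp2 lies 6.4 Mb from the start of chromosome 19, and 66.9% of its exon bases stayed on its own exons at the common slope, the only tested row of the list with most of them there. The Grk6 row, named for a kinase that desensitises G protein-coupled receptors, was lower in transgenic libraries by -1.45 against control (SE 0.30, adjusted p = 0.00312) and by -1.35 against knockout (SE 0.31, adjusted p = 0.0066). The latter was -0.96 (adjusted p = 0.153) without knockout libraries 2, 3 and 5. The Cdc42 row, named for a GTPase of cell polarity, was higher in transgenic libraries by 1.24 against control (SE 0.31, adjusted p = 0.0139) and 2.03 against knockout (SE 0.35, adjusted p = 0.000429). The latter was 1.35 (adjusted p = 0.0189) without knockout libraries 2, 3 and 5. None of the exon bases of the Grk6 and Cdc42 rows stayed on those genes at the common slope.

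CCR6 marks a subset of effector Tregs, whose list had 9 of 23 rows tested. Prdm1 was lower in knockout than in control by 1.82 on the log2 scale (value -1.82, SE 0.30, adjusted p = 0.00142) and higher in transgenic than in knockout by 2.53 (SE 0.30, adjusted p = 4.41e-06). Irf4 (0.66, SE 0.17, adjusted p = 0.015) and Stat3 (0.45, SE 0.13, adjusted p = 0.0315) were also higher in transgenic than in knockout. Without knockout libraries 2, 3 and 5 these were 0.68 (adjusted p = 0.0805) and 0.43 (adjusted p = 0.165). Il6ra was lower in transgenic than in control (-0.93, SE 0.17, adjusted p = 0.000712). Of the 9 rows 1 was called lower in transgenic against control, 1 lower in knockout against control and 3 higher in transgenic against knockout. Over all rows these shares were 2.17%, 1.01% and 6.34%. The median of the 9 rows was 0.03, -0.30 and 0.45 in the same order, beside -0.01, -0.02 and 0 over all rows.

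CCR7 marks resting Tregs, whose list had 9 of 14 rows tested. Satb1, a chromatin organiser, was lower in transgenic than in control (-0.50, SE 0.10, adjusted p = 0.00152), and Bcl2, a survival factor, was lower in transgenic than in knockout (-0.59, SE 0.19, adjusted p = 0.042), a call lost in 17 of 28 alternatives, with -0.35 (adjusted p = 0.401) without knockout libraries 2, 3 and 5. Between knockout and control edgeR, DESeq2 and voom called 0 of the 9, beside 1.89% of all rows by edgeR, and 1 had an unadjusted p under 0.05 in edgeR. The medians of the 9 rows were -0.50, -0.23 and -0.26 in the order above, beside -0.01, -0.02 and 0 over all rows. Over all rows 2.17% were called lower in transgenic against control and 4.33% in transgenic against knockout. Of the effector and resting lists, no tested row had most of its exon bases on its own gene at the common slope, so these names are those of the table.

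**Figure D4:**
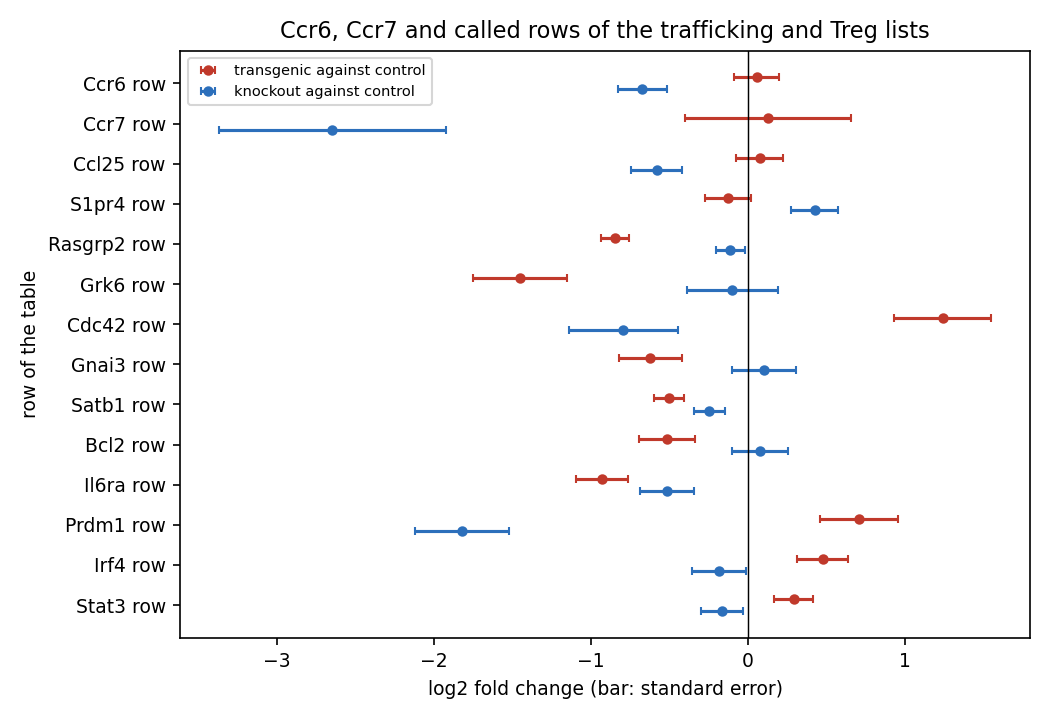
Log2 fold change with its standard error (x axis) of the Ccr6 and Ccr7 rows and of list rows called in at least 1 of the 3 comparisons (y axis), for transgenic against control and knockout against control. The Ccr6 row sits at 0.06 and -0.67, the Rasgrp2 row at -0.84 and -0.11, and the Prdm1 row at 0.71 and -1.82.

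B cells also carry CCR6, and dendritic cells carry CCR7, so markers of other cells were read beside both rows. Of 12 B cell marker rows 3 were tested. Cd79a held 52.8 CPM in transgenic, 39.9 in knockout and 72.6 in control libraries, and its difference between knockout and control was not called (-0.85, SE 0.28, adjusted p = 0.0962), at -0.27 (adjusted p = 0.88) without knockout libraries 2, 3 and 5. DESeq2 called 1 of the 3 rows in that comparison. The Ighm row, named for the IgM heavy chain, was higher in transgenic than in knockout (2.70, SE 0.66, adjusted p = 0.0103), the direction of the Ccr6 row, at 5.72 ± 2.97 CPM (SD, n = 6) against 0.809 ± 1.28 (SD, n = 5), with overlapping groups. Over all rows 6.34% were called higher in that comparison. DESeq2 and voom also called 1 row there, and without knockout libraries 2, 3 and 5 the Ighm value was 1.49 (adjusted p = 0.113). None of the exon bases of the Cd79a and Ighm rows stayed on those genes at the common slope. The Cd79b, Blk and Ebf1 rows were at 0 in every library. The B cell markers summed to 222 to 307 CPM in controls, 173 to 268 in knockouts and 182 to 279 in transgenic libraries, and the part of B cell RNA in the Ccr6 difference was not tested. Of 11 dendritic cell rows 2 were tested, and the sums in the same order were 65.7 to 84.3, 86.9 to 95.2 and 75 to 89.5 CPM, with Xcr1 and Batf3 at 0. Flt3 was higher in knockout than in control (1.40, SE 0.35, adjusted p = 0.0414), opposite in direction to the Ccr7 row, a call lost in 15 of 28 alternatives. In that comparison 1.89% of all rows were called. The other tested row, Zbtb46, was not called, at 70.8, 72.5 and 66.3 CPM in transgenic, knockout and control libraries. The untested Itgax row was lowest in the knockout, as the Ccr7 row was, at 1.93, 0.163 and 0.858 CPM. The defining Treg and CD4 T cell rows summed to 1700 to 1830 CPM in controls, 1710 to 2380 in knockouts and 1900 to 2430 in transgenic libraries, with none of 14 at 0, and of the 13 tested edgeR called 3, 2 and 3 in transgenic against control, knockout against control and transgenic against knockout, beside 7.4%, 1.89% and 10.7% of all rows. The 2 knockout calls, Ikzf2 (0.53) and Izumo1r (-0.35), went in opposite directions. They were lost in 18 and 20 of 28 alternatives, and DESeq2 called 3 there and voom 0. In each transgenic comparison 2 of the 3 calls were higher and 1 was lower. The smallest adjusted p was that of Izumo1r, for folate receptor 4, higher in transgenic libraries by 0.58 against control (SE 0.09, adjusted p = 7.83e-05) and by 0.93 against knockout (SE 0.09, adjusted p = 2.99e-07). The lower call was Nrp1, at -1.20 against control (adjusted p = 0.0267) and -1.21 against knockout (adjusted p = 0.0252). The CD8 T cell and NK cell list (4 of 10 rows tested) and the red cell and platelet list (1 of 9) had 0 calls by edgeR, DESeq2 and voom, with 1 unadjusted p under 0.05 in edgeR, for transgenic against knockout in the former. Of the macrophage, monocyte and neutrophil list 2 of 10 rows were tested, and Ly6g was higher in transgenic than in control (2.84, SE 0.55, adjusted p = 0.00172), at 4.74 against 0.646 CPM. Over all rows 5.23% were called higher in that comparison. The other tested row, Csf1r, was not called and had the lower mean in transgenic libraries, at 11.4 against 15.9 CPM. The S100a8 and S100a9 rows were at 0 in every library. None of the exon bases of the Ly6g row stayed on that gene at the common slope. Most marker rows share the doubt about identity described above.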

How the data were processed

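RNA of sorted splenic Tregs was read over 67 bp with a molecular identifier of 9 bp. A depth of 27 M reads is stated for each library, per the labels' design text. The values deposited for the 17 libraries are expected counts, from reads aligned to GRCm38 with bowtie 2 and Ensembl 102 transcripts, per the same text. Duplicate removal by molecular identifier is not described, so Poisson intervals cover counting error only. Of 47643 rows, 47224 matched a symbol and position in GENCODE M21, and 5.87% of the values were not whole.

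Counts were rounded and tested with edgeR 4.0.16's quasi-likelihood test in R 4.3.3 (TMM factors, filterByExpr, all 17 libraries in 1 fit, 9986 rows, Benjamini-Hochberg adjustment over all of them, threshold 0.05). The standard error is the absolute log2 fold change divided by the square root of F. The script was tested on simulated data. CPM used library totals times TMM factors. For correlations, log2 CPM had an offset of 0.5.

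The 2 receptors, the gene lists and the tests were chosen with earlier results of these data known, and no test is given for Ccr6 or Ccr7. Named rows were Foxp3, Nfkbid, the 5 named rows with the highest r to each receptor row (predicted, clone-named and receptor-segment symbols left out), of each list at most 4 called rows by adjusted p (with 0 calls, the row of smallest p), rows within 250 kb with a mean of at least 10 counts, and genes under the moved rows. Where a list had several such members, only some are given, S1pr1, Ccl20, Ccl21a and Ccl19 being added for their roles. Some rows are not reported here.

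Replicate numbers in the titles did not pair the libraries. Of 16 same-numbered pairs 1 had a correlation over 0.1 (range -0.462 to 0.324). Libraries of 1 group all differed by more than counting noise (smallest chi-square per degree of freedom 2.63). The labels give no batch that separates the libraries. Serial numbers in the column names run together for the transgenic libraries and control libraries 1 and 2. Those of the knockout libraries and of the other controls lie apart from them. What these numbers stand for is not given. In the knockout comparisons genotype and a batch of that kind cannot be told apart. Between transgenic and control they overlap only in part, and such a batch was not tested. Alternatives were RLE, upper-quartile or no normalization factors, 2 other filters, unrounded counts, DESeq2 1.42.0, voom of limma 3.58.1, a block for replicate number, fits of only the groups compared, and fits without each library or without knockout libraries 2, 3 and 5.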

Additional observations from a re-analysis of the deposited data

Results flagged for a closer look

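Dixon's criterion was applied to 39 groups of values and singled out a library in 2, where chance gives about 1 in 20. Control library 1 had a total of 4727000 counts, against 3133000 to 3535000 in the other 5 control libraries, and it also had the highest Ccr6 level of the controls. Transgenic library 1 had a TMM factor of 0.865, against 0.9956 to 1.041 in the other 5 transgenic libraries. No Ccr6 or Ccr7 level was set apart in this way in any group.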

How the results depend on the processing

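The log2 difference of the Ccr6 row kept its direction between knockout and control (-0.79 to -0.54) and between transgenic and knockout (0.62 to 0.80) over 28 alternatives, and ran from -0.02 to 0.19 between transgenic and control. The Ccr7 row ran from -3.49 to -2.33, 2.46 to 3.63 and -0.10 to 0.36, and did not pass the filter in fits of the knockout and 1 other group. The slope of the exon move changes no count, only which gene a row is read as.

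Counts of called rows moved more, and the cause was not tested. Between transgenic and control 739 rows were called, 1226 in a fit of the 2 groups, 1348 without knockout libraries 2, 3 and 5, and 529 to 876 with 1 library left out. Between knockout and control 189 were called, 571 with no filter, 573 with DESeq2, 76 in a fit of the 2 groups, 43 without those 3 libraries, and 88 to 1124 with 1 library left out. Libraries that moved this count by over 1.5 times were transgenic 1 (518 without it), knockout 1 (806), 2 (111), 3 (103), 4 (1124) and 5 (88), and control 1 (89), 3 (92), 4 (107) and 5 (95). Between transgenic and knockout 1065 were called, 651 in a fit of the 2 groups, and 735 to 1641 with 1 library left out, the last without transgenic 1.

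Called members of the chemokine receptor, ligand and homing lists numbered 0 between transgenic and control, 1 with library totals alone, 2 with DESeq2, 1 with voom, 3 in a fit of the 2 groups, 3 without knockout libraries 2, 3 and 5, and 0 to 2 with 1 library left out. Between knockout and control they numbered 0, 1 with RLE factors, 2 with DESeq2, and 0 to 4 with 1 library left out. Between transgenic and knockout they numbered 2, 1 in a fit of the 2 groups, and 1 to 3 with 1 library left out.

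With the replicate number as a block, 67 rows were called between knockout and control, 670 between transgenic and knockout and 576 between transgenic and control, and the last list count was 1. The Ccr6 differences under the block were 0.08, -0.70 and 0.79, in the order transgenic against control, knockout against control and transgenic against knockout, and those of the Ccr7 row 0.19, -2.53 and 2.72. The numbers did not pair the libraries, and 3 of 17 libraries correlated best with their own number.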
